A study of Mus musculus with 3 samples.

Results

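Helper T cell genes are the transcription regulators, cytokines and cytokine receptors by which activated CD4 T cells become Th1, Th2, Th17 or follicular helper cells. Th1 cells are set by Tbx21 (T-bet) and make interferon gamma, Th2 cells make Il4, Il5 and Il13, Th17 cells make Il17a and Il17f, and follicular helper cells make Il21 and support B cells. Tcf1, the HMG-box factor encoded by Tcf7, is known to favour follicular helper and Th2 fates and to limit Th1 and Th17 fates in activated cells, and it binds DNA through the letters CTTTG followed by A or T. The 31 genes described here were listed by name, with earlier results of these data known. A Tcf1 peak belonged to a gene if its midpoint lay in the gene's span on the mm10 build, or if the gene was the nearest protein-coding gene within 100 kb. By this rule 9 of 4519 peaks in conventional CD4 T cells and 10 of 3402 peaks in regulatory T cells (Treg cells) belonged to these 31 of 21887 protein-coding genes.

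The study mapped Tcf1 by chromatin immunoprecipitation and sequencing with an antiserum against Tcf1. Both cell types used here were sorted from the spleen of wild type Foxp3-Cre-GFP mice aged 8 to 10 weeks, whose Foxp3-expressing cells carry a Cre and green fluorescent protein reporter. Conventional cells were TCRb+, CD4+, CD25- and reporter-negative, and Treg cells were TCRb+, CD4+, CD25+ and reporter-positive. The tissue label of the conventional sample reads effector, against its title and source. The sources used here do not say how many mice were pooled. Of 3 samples, the CD4 T cells of CD4-Cre+ Tcf1 fl/fl mice, in which Cre acts in the T cell lineage, were not analysed here. Each cell type is 1 library and 1 peak list without read counts, so depth is unknown, no difference between the lists has a replicate check and no test was made. A peak list does not measure expression, so the sorted cells could not be checked by their marker genes. A peak missing from a list cannot tell binding in fewer cells from weaker binding in each cell.

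Tcf1 peaks in both cell types belonged to 6 of the 31 genes: Ifng, Il21, Lta, Maf, Pou2af1 and Rora. Sh2d1a and Il27ra had a conventional peak alone, and Bhlhe40, Il10, Il23r and Ifngr1 had a Treg peak alone. The other 19 genes had no peak in either list, among them Tbx21, Eomes, Il2, Il4, Il17a and Tnf. A conventional peak was thus present at 8 of 31 genes (25.8%), against 16.3% of all protein-coding genes. A Treg peak was present at 10 of 31 (32.3%), against 12.3% of all protein-coding genes. Over all protein-coding genes 8.17% had a peak in both lists, 8.1% had a conventional peak alone and 4.13% had a Treg peak alone. Among the helper genes these counts were 6, 2 and 4. The rule gave the 31 genes 3.1 Mb of genome in all, which held 2.91 conventional and 3.23 Treg peaks per Mb. For all protein-coding genes the same densities were 2.29 and 1.67 per Mb. Because the 31 genes were chosen with earlier results of these data known, their shares and densities are a description. In the plot of the closest peak to each gene, the genes without a peak range from Tnf, which lies beside the Lta peaks, to Il17a and Il17f, with none for several Mb.

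**Figure D1:**
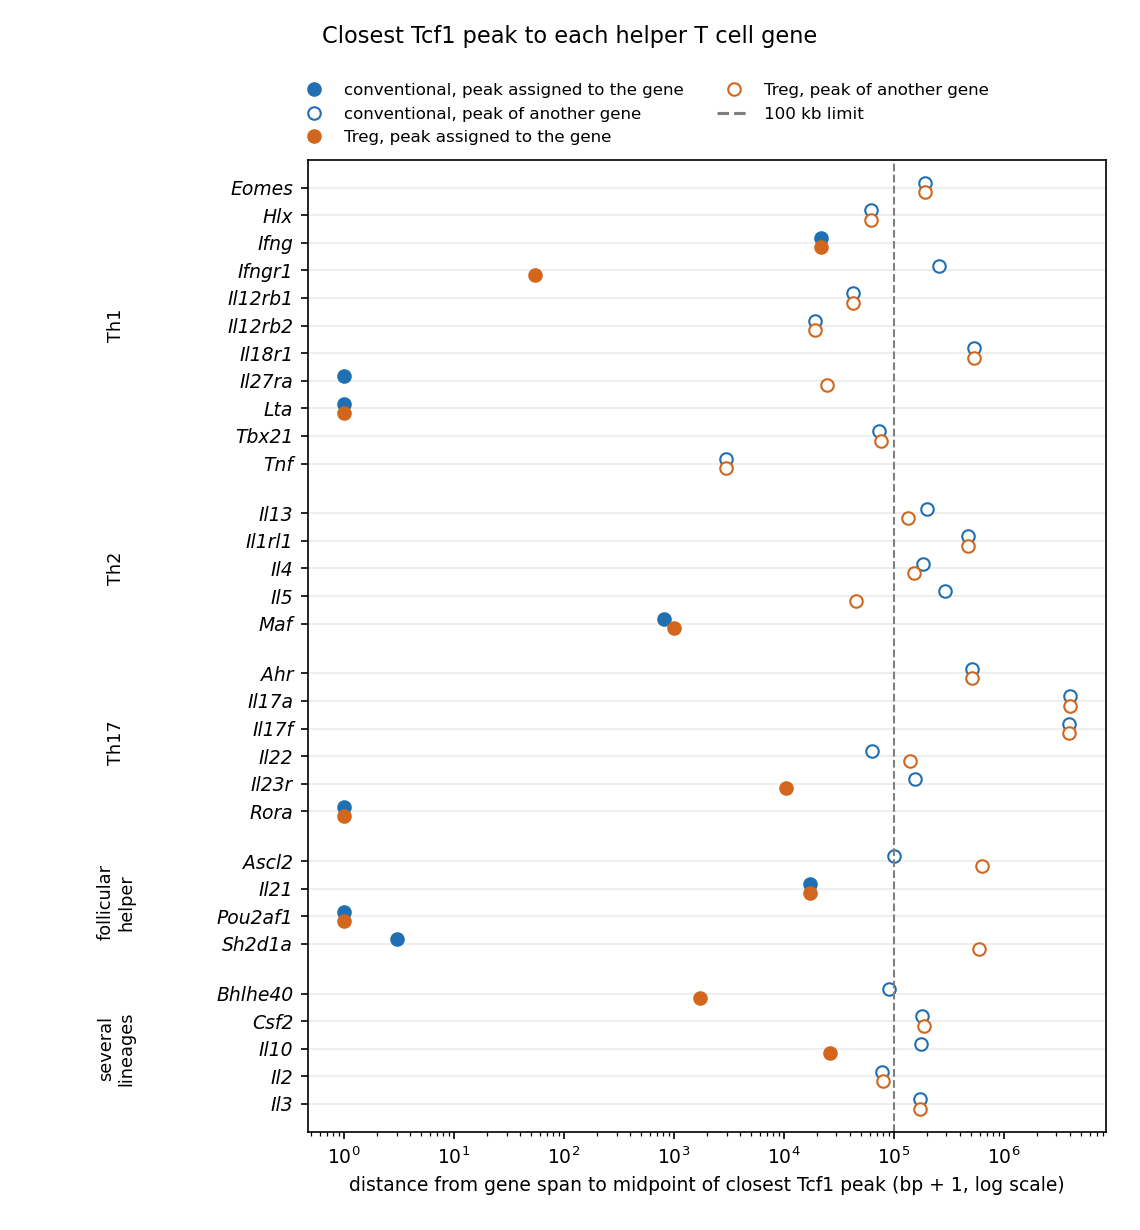
Distance from the span of each of the 31 helper T cell genes to the midpoint of the closest Tcf1 peak, in bp plus 1 on a log scale, for the conventional list (blue) and the Treg list (orange). Filled points are peaks assigned to that gene and open points are peaks of another gene. Il17a and Il17f have no peak closer than 3893336 bp, while 6 genes have filled points in both colours.

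Among these 31 genes, the follicular helper group had the highest share of members carrying a peak. The group holds only 4 genes, and its rank in the Treg list depended on the assignment rule. A conventional peak was present at 3 of 4 (Sh2d1a, Pou2af1 and Il21) and a Treg peak at 2 of 4 (Pou2af1 and Il21). Ascl2, a regulator that starts follicular helper differentiation, had neither. Other follicular helper genes, outside these 31, were split: Bcl6 and Pdcd1 had a peak in both lists, Cxcr5 and Icos in neither. Within 10 kb of a span, and with the nearest gene of any type, 1 of 4 follicular helper genes had a Treg peak, a smaller share than the 3 of 11 Th1 genes under either rule. Th1 genes had a conventional peak at 3 of 11 (Ifng, Lta and Il27ra) and a Treg peak at 3 of 11 (Ifng, Lta and Ifngr1). Among Th2 genes 1 of 5 had a peak, and this was Maf in both lists. Th17 genes had a conventional peak at 1 of 6 (Rora) and a Treg peak at 2 of 6 (Rora and Il23r). Of 5 genes that several lineages use, none had a conventional peak and 2 had a Treg peak (Bhlhe40 and Il10). Maf also acts in follicular helper cells, and with Maf counted there the follicular helper counts were 4 and 3 of 5, and no Th2 gene was left with a peak. No other regrouping was tried. The lineage groups were chosen with earlier results of these data known, so their ranking is a description. These are counts of very few genes, and the differences between lineages were not tested.

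**Figure D2:**
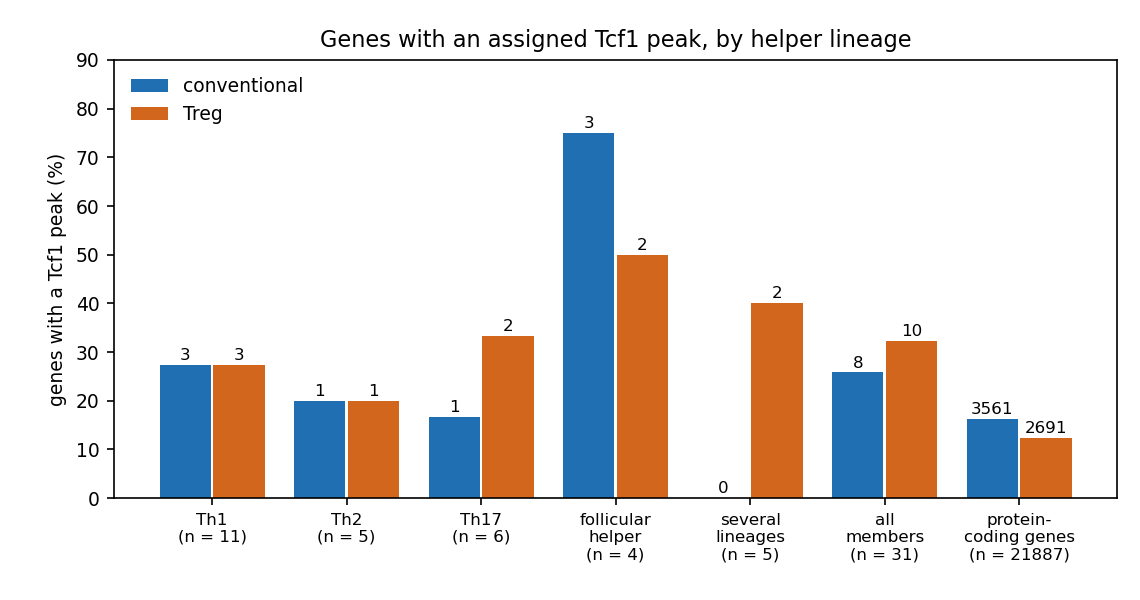
Percent of genes with at least 1 assigned Tcf1 peak, by helper lineage, for the conventional (blue) and Treg (orange) lists. Numbers above the bars are gene counts, and the last pair gives all 21887 protein-coding genes. The follicular helper bars, 3 and 2 of 4 genes, are the tallest, and the conventional bar of the genes used by several lineages is at 0.

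By role, transcription regulators carried a conventional peak at 3 of 9 (16.3% of all protein-coding genes had one) and a Treg peak at 4 of 9 (12.3% of all). Receptor genes carried a conventional peak at 1 of 7 and a Treg peak at 2 of 7, and no receptor gene had a peak in both lists. Maf encodes c-Maf, a bZIP factor that activates Il4, Il10 and Il21. Its span is chromosome 8, 115703253 to 115706894, and 1 peak per list lay just beyond one end of it. The conventional Maf peak (chr8:115707391-115708031, 641 bp wide) had its midpoint 817 bp outside the span, and the Treg peak (chr8:115707714-115708088, 375 bp wide) 1007 bp outside. The peaks overlapped by 318 bp.

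Rora encodes RORalpha, a nuclear receptor that acts in Th17 cells. Its span of 734843 bp (chromosome 9, 68653404 to 69388246) held 1 peak in each list. The conventional peak (chr9:69034578-69034861) was 284 bp wide, close to the narrowest of its list at 279 bp. The Treg peak (chr9:69034479-69034796) was 318 bp wide, and the 219 bp that both cover lay about midway along the gene, 380933 bp from its start to the conventional midpoint. Bhlhe40, a bHLH repressor of Il10 needed for cytokine production by several helper types, had 1 Treg peak and no conventional peak. This peak (chr6:108668526-108668769) lay 1722 bp outside the span and at 244 bp was close to the narrowest Treg peak, 240 bp.

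Pou2af1 encodes the coactivator OCA-B, known from B cells and also used by follicular helper cells. Its peaks lay over the gene start on chromosome 9 (51213690, plus strand). The conventional peak (chr9:51213482-51214002) was 521 bp wide and the Treg peak (chr9:51213549-51213991) was 443 bp wide. The Treg peak lay wholly inside the conventional one, and their midpoints lay 52 and 80 bp into the gene. Ifngr1, the ligand-binding chain of the interferon gamma receptor, was the other gene whose start window lay mostly under a peak, here in the Treg list alone (chr10:19591762-19592031, 270 bp wide, midpoint 53 bp before the start at 19591949). The 250 bases before each start are shown because a peak covers most of them in at least 1 list, 5′ to 3′ on the gene's strand, which is plus for both. Capitals mark bases under the peaks, 141 bases under both peaks for Pou2af1 and 187 bases under the Treg peak for Ifngr1. The sequences are from RefSeq on GRCm38.p6, whose chromosomes are those of mm10.
Pou2af1 (chr9:51213440-51213689): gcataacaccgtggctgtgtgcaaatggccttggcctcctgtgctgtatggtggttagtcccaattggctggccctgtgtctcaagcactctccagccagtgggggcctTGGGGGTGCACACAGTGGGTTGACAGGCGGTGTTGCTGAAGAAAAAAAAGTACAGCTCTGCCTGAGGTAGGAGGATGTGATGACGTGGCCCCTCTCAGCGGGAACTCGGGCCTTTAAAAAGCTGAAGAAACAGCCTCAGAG
Ifngr1 (chr10:19591699-19591948): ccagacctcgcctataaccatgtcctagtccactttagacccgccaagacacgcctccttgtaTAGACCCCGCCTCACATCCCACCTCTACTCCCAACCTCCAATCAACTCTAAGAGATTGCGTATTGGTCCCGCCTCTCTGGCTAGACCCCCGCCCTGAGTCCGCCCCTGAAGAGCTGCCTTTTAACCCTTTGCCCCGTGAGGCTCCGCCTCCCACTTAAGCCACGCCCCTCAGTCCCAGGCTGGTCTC
Neither sequence holds, on either strand, CTTTGNN with an A or a T at each N, the letters searched here for TCF/LEF factors. G and C made up 56.0% of the Pou2af1 window and 59.2% of the Ifngr1 window.

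Of the other peaks at an end of a span, the one at Sh2d1a was found in the conventional list alone. Sh2d1a encodes SAP, the adaptor that follicular helper cells need for contact with B cells. Its peak (chrX:42502335-42502792, 458 bp wide) straddled the lower end of the gene span at 42502565, and the closest Treg peak lay 590633 bp away. Il27ra, a chain of the interleukin 27 receptor, also had a conventional peak alone. It lay over the upper end of the span (chr8:84042445-84042743, 299 bp wide), and the closest Treg peak, at Rfx1, was 24561 bp away. This Il27ra peak was wider than only 7.44% of conventional peaks. It was lost when only the 3402 widest conventional peaks were kept, to equal the Treg list in length. Ahr, Bhlhe40, Il10, Il12rb1, Il27ra, Maf and Sh2d1a had no entry in the table of gene starts, so the end of the span is given for them without the strand.

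Cytokine genes carried a conventional peak at 3 of 14, a share near the 16.3% of all protein-coding genes, and a Treg peak at 4 of 14, against 12.3%. Ifng, the defining cytokine of Th1 cells, had 1 peak in each list at nearly the same place. The conventional peak (chr10:118418817-118419457, 641 bp) and the Treg peak (chr10:118418886-118419461, 576 bp) overlapped by 572 bp, with midpoints 21909 and 21873 bp upstream of the Ifng start at 118441046. A conserved element upstream of Ifng is known as an enhancer in T cells, and its coordinates were not used here. A further shared pair, which began at 118633403 (conventional) and 118633481 (Treg), had Ifng as its nearest protein-coding gene at 187786 and 187825 bp. It fell outside the 100 kb limit, and no other peak beyond the limit had a helper gene as its nearest gene. The farthest peak inside the limit was the Il10 peak at 26185 bp. With a limit of 20 kb in place of 100 kb, neither list had a peak for Ifng or Il10.

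Il21, the cytokine of follicular helper cells, had 2 conventional peaks and 1 Treg peak between its 3′ side and Il2. The shared peak was 501 bp wide in the conventional list (chr3:37205192-37205692) and 515 bp in the Treg list (chr3:37205104-37205618), where it was wider than 80.8% of peaks. The other conventional peak (chr3:37204032-37204344, 313 bp) had no Treg partner. Their distance to the Il21 span was 17317 to 18571 bp. Il2 and Il21 are neighbours, and the same 3 peaks lay 78234 to 79488 bp upstream of the Il2 start, so their assignment to Il21 rests on distance alone. Il2, the growth factor of activated T cells, had no closer peak in either list.

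Lta, which encodes lymphotoxin alpha, had the widest peaks of the 31 genes in both lists. The conventional peak (chr17:35204614-35205396) was 783 bp wide, more than 92.9% of its list, and the Treg peak (chr17:35204578-35205315) was 738 bp wide, more than 93.9%. They overlapped by 702 bp, with midpoints 346 and 405 bp into the gene from its start at 35205351. The conventional peak covered the last 45 bases before that start, which still lie inside the Lta span, and the Treg peak covered none. Tnf lies directly beside Lta and had no peak of its own, but the Lta peaks were 2998 bp (conventional) and 2939 bp (Treg) upstream of the Tnf start. On the other side, shared peaks inside Ltb, which encodes the partner chain of lymphotoxin alpha, lay 3442 and 3400 bp from the Tnf span. Counting every peak within 10 kb of a span, Tnf joined the genes with a peak in both lists, Ifng and Il21 left them, and Il10 and Il23r lost their Treg peak. The genes with a peak in both lists were then 5 in place of 6.

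Il10, an anti-inflammatory cytokine that Treg cells and several helper lineages make, had 1 Treg peak and no conventional one. The peak (chr1:130993485-130993835, 351 bp) lay 26185 bp beyond the lower end of the span, and the closest conventional peak was 175157 bp from the gene, at Rassf5. Il23r, the receptor chain through which interleukin 23 maintains Th17 cells, had a Treg-alone peak 10396 bp upstream of its start (chr6:67502078-67502425, 348 bp). The closest conventional peak to Il23r was 156140 bp away, and a stretch of 3.56 Mb without a conventional peak held both Il23r and its neighbour Il12rb2.

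**Figure D3:**
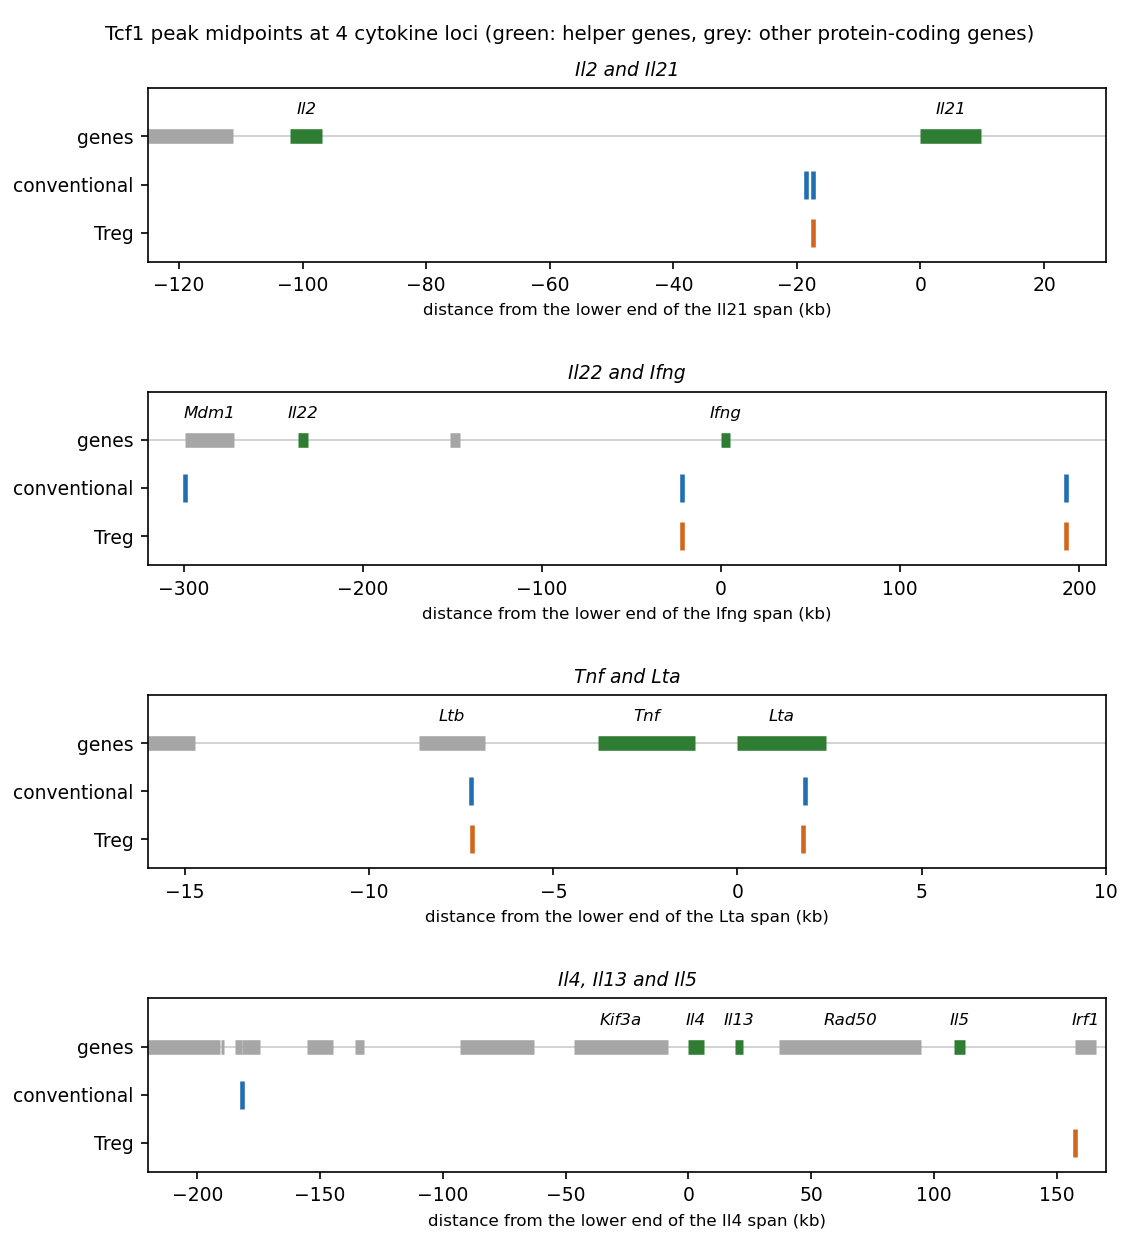
Positions of Tcf1 peak midpoints in the conventional (blue) and Treg (orange) lists at 4 cytokine loci, in kb from the lower end of the span of Il21, Ifng, Lta and Il4. Green bars are helper genes and grey bars are other protein-coding genes. Shared peaks sit between Il2 and Il21, on both sides of Ifng, and at Ltb and Lta, while no peak lies among Il4, Il13 and Il5.

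The Th2 cytokine genes Il4, Il13 and Il5, which share a locus control region in the neighbouring Rad50 gene, had no peak in either list. In the conventional list the stretch without a peak around them was 638 kb (chr11:53430989-54069069), while the Treg stretch was 1451 kb (chr11:52318897-53769894). The median distance between neighbouring peaks was 129 kb for conventional and 250 kb for Treg peaks. The stretches around Il4, Il13 and Il5 were longer than 80.3% (conventional) and 84.6% (Treg) of these distances. A gene without a peak is more likely to lie in a long stretch than in a short one. The comparison with the median therefore does not show an unusual lack of peaks at these genes. The Treg stretch ended at a peak at Irf1, 44987 bp from Il5, with no conventional partner. Il3 and Csf2, further along the same chromosome, lay in stretches of 369 kb (conventional) and 586 kb (Treg) without a peak.

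Il17a and Il17f, the defining Th17 cytokines, lay in the longest stretch without a peak of any of the 31 genes. It measured 11.1 Mb (conventional) and 8.59 Mb (Treg), more than 99.7% and 99.6% of the distances between neighbouring peaks. This stretch was picked as the longest among the 31 genes, and genes without a peak tend to lie in long stretches. Its rank therefore does not show an unusual lack of peaks at Il17a and Il17f. Il22, a Th17 cytokine next to Ifng, had its closest conventional peak 62884 bp away at Mdm1 and its closest Treg peak 139610 bp away. Il18r1 and Il1rl1, receptors for interleukin 18 and interleukin 33 that lie side by side, shared a stretch of 4.0 Mb (conventional) and 3.17 Mb (Treg). Ahr, the aryl hydrocarbon receptor used by Th17 cells, was 507635 bp from a conventional and 507555 bp from a Treg peak.

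Tbx21 and Eomes, the T-box factors of Th1 cells, had no peak. The closest peaks to Tbx21 were a conventional peak at Kpnb1, 72955 bp away, and a Treg peak at Sp6, 75880 bp away, and neither was shared. For Eomes the closest was a shared peak at Itga9, 192329 and 192325 bp away. Hlx, a homeobox factor that acts with T-bet, was 61314 and 61262 bp from a shared peak at Mtarc1. Ascl2 had its closest conventional peak 99723 bp away inside Tssc4 and its closest Treg peak 631024 bp away. The chains of the interleukin 12 receptor, which drives Th1 cells, also had none. Il12rb2 had a shared peak 19194 and 19070 bp away that belonged to Serbp1, and Il12rb1 had one 42161 and 42359 bp away that belonged to Kcnn1.

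Shared peaks were wider than unshared ones in the whole lists, with medians of 497 against 387 bp (conventional) and 408 against 322 bp (Treg), and most of those at helper genes were wider too. Of 9 conventional peaks 6 were shared, against 42.8% of the whole list, and of 10 Treg peaks 6 were shared, against 56.9%. The 6 shared conventional peaks were 284 to 783 bp wide with a median of 581 bp, and the 3 unshared ones were 299 to 458 bp. In the Treg list the 6 shared peaks were 318 to 738 bp wide with a median of 479 bp, and the 4 unshared ones were 244 to 351 bp. The shared Rora peaks were the exception, the narrowest helper gene peak among the conventional ones and narrower than the Treg-alone Il10 and Il23r peaks. All 4 Treg-alone peaks were narrower than the Treg median of 366 bp. Those of Bhlhe40 (244 bp) and Ifngr1 (270 bp) were narrower than any conventional peak, the narrowest of which was 279 bp. Of all Treg peaks 14.3% were narrower than the Ifngr1 peak, so such widths are no particular trait of these genes. With the 2259 widest conventional and the 1701 widest Treg peaks kept, the Treg genes were Maf, Pou2af1, Ifng, Il21 and Lta, 5 in place of 10, and the conventional genes were the same 5 and Sh2d1a.

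**Figure D4:**
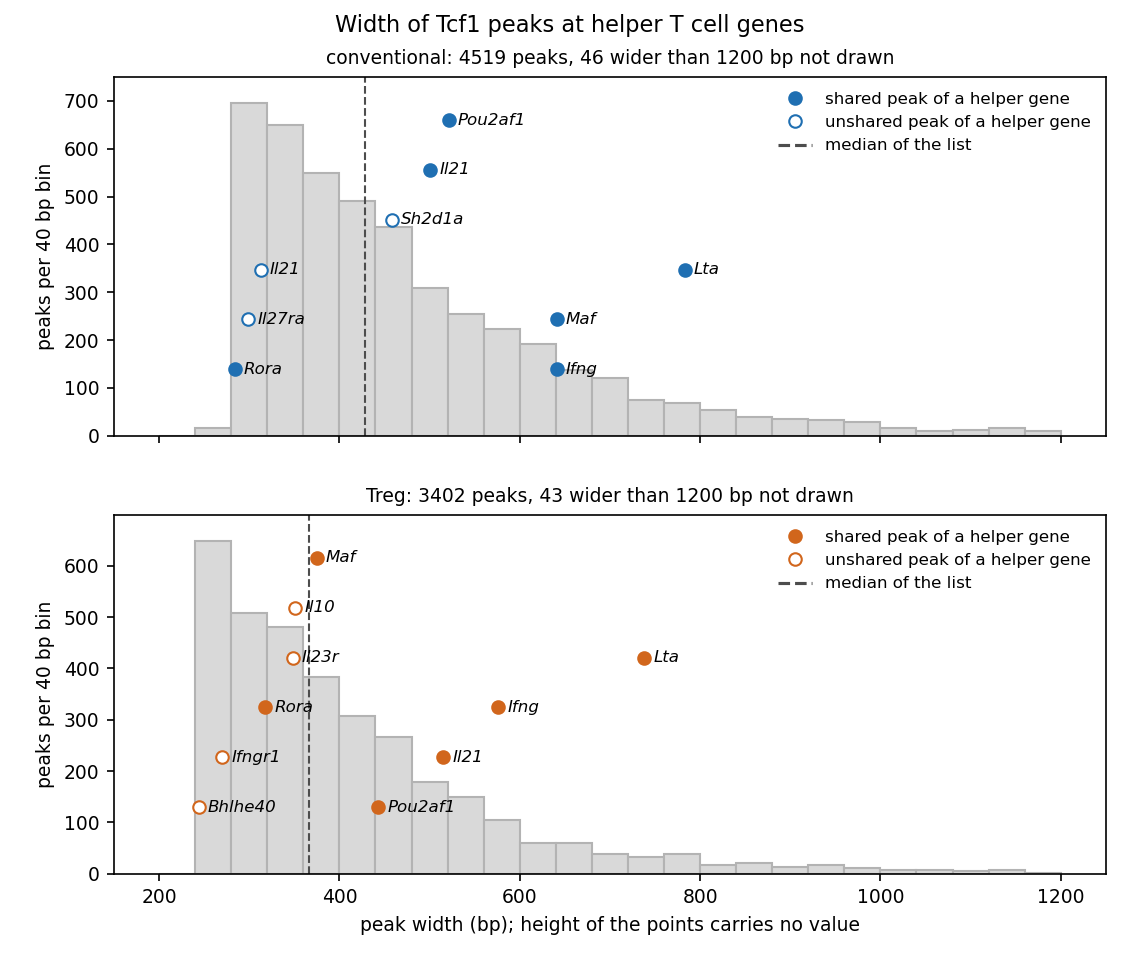
Histogram of Tcf1 peak widths in bins of 40 bp for the conventional list (top) and the Treg list (bottom), in grey, with the peaks of helper T cell genes as labelled points (filled if shared between the lists, open if not). The dashed line is the median of the list, 428 bp and 366 bp. The Treg points of Bhlhe40, Ifngr1, Il23r and Il10 are open and lie below the median.

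By place, 5 conventional and 3 Treg peaks had their midpoint within 1000 bp of an end of the helper gene's span, 1 in each list lay deeper inside a gene, and 3 and 6 lay outside. In the whole lists 48.1% of conventional and 41.8% of Treg peaks lay within 1000 bp of an end of a protein-coding gene. The Maf peaks fell on either side of this limit, at 817 and 1007 bp.

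The table of gene starts held 28 windows of 250 bases for 24 of the 31 genes. TCF/LEF letters (CTTTGNN with an A or a T at each N, on either strand) were present in 7 windows (25.0%), against 13.2% of 21263 windows of protein-coding genes. Each of the 7 belonged to a cytokine gene, and none of the 7 was overlapped by a peak. Cytokine genes are 14 of the 31 genes, and a difference between cytokine and other windows was not tested. Most windows have no peak over them: 18627 of the 21263 windows of protein-coding genes, and all but 3 of the 28 here. The lack of overlap at the 7 is therefore no particular trait of them. The 3 windows that a peak did overlap, at Pou2af1, Ifngr1 and Lta, held none. Over all protein-coding genes the letters were in 12.6% of windows overlapped by a conventional peak, 14.8% of those overlapped by a Treg peak, 17.0% of those overlapped in both lists and 13.3% of those under no peak. The matches are shown, with the bases on each side, because they are TCF/LEF letters before cytokine gene starts with no Tcf1 peak over them. Each is written 5′ to 3′ on the gene's strand, and capitals mark the match. RefSeq on GRCm38.p6 is the source.
Il2 (chr3:37126080-37126086, minus strand): gaagaggaaaAACAAAGgtaatgcttt
Il2 (chr3:37126045-37126051, minus strand): caggtagactCTTTGAAaatatgtgta
Il21 (chr3:37232712-37232718, minus strand): tcatccactaTACAAAGatttccaggc
Il4 (chr11:53618885-53618891, minus strand): tatgctgaaaCTTTGTAgatttaaaaa
Il13 (chr11:53634766-53634772, minus strand): gataatgcccAACAAAGcagagaccag
Il5 (chr11:53720552-53720558, plus strand): aaatgtggATCAAAGttgtagaaac
Il3 (chr11:54267466-54267472, minus strand): agaagatggcCTTTGAAtaagcagtct
Il17f (chr1:20784405-20784411, minus strand): tagggtccccCTTTGATtccccttcag
Coordinates are those of the capitals. The last capital lies 126 and 91 bases before the start for Il2, 76 for Il21, 220 for Il4, 64 for Il13, 236 for Il5, 187 for Il3 and 135 for Il17f. Those of Il2 (the first), Il21, Il13 and Il5 read as the reverse complement of the searched letters. A match of letters is a description and not a binding site.

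**Figure D5:**
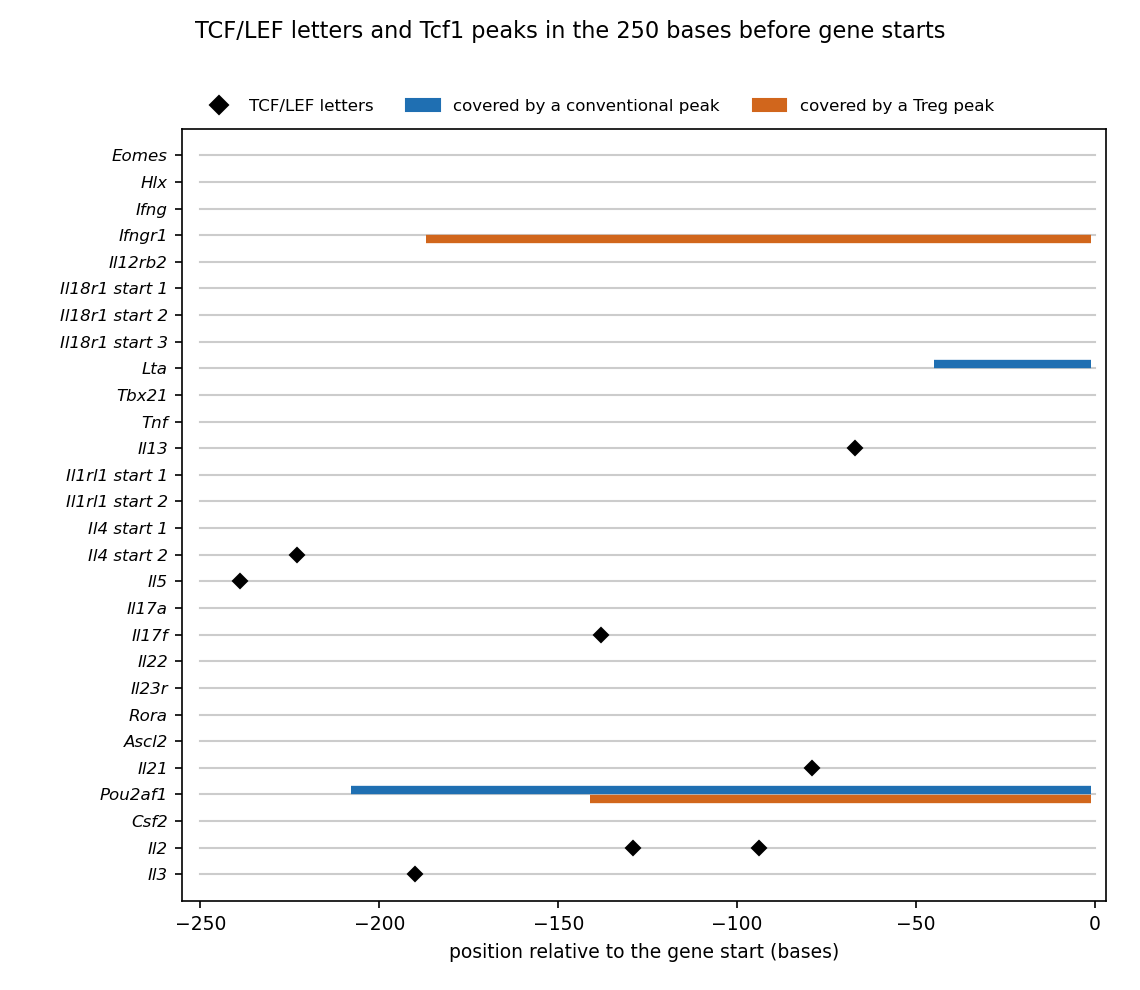
The 250 bases before each RefSeq gene start of 24 helper T cell genes, drawn from 5′ (left) to the start (right, position 0). Some starts lie inside the gene's span. Diamonds mark TCF/LEF letters and bars mark bases covered by a conventional (blue) or Treg (orange) peak. The 8 diamonds and the 4 bars lie in different windows, and only 3 of the 28 windows hold a bar.

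Among 34 other genes of helper T cells, such as lineage factors, STAT factors and receptors, 17 had a conventional peak (50.0%, against 16.3% of all protein-coding genes), 16 a Treg peak (47.1%, against 12.3%) and 14 both (8.17% of all), and 15 had neither. These genes were chosen with earlier results of these data known, so their shares are a description. The 14 were Bcl6, Stat3, Stat5b, Irf4, Runx1, Runx3, Pdcd1, Il2ra, Il4ra, Il6ra, Il6st, Il21r, Ifngr2 and Il9. They include signalling chains for the cytokines described above: Il21r, the receptor of interleukin 21, had 2 conventional peaks and 1 Treg peak, and Ifngr2, the partner of Ifngr1, had 1 in each list. Il4ra, the receptor chain of interleukin 4, had 2 and 1. Like Tbx21, the Th2 lineage factor Gata3 had no peak in either list.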

How the data were processed

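Each deposited file is a list of peaks with chromosome, start and end. FastQC, Bowtie2 2.3.4.1, MACS2 2.1.1 and the build mm10 are named, with no role, in the submitters' processing notes. The authors named the lists filtered, by a filter that the sources used here do not state. Widths therefore stand in for a score.

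Gene spans came from a RefSeq table of GRCm38.p6 and gene starts from a RefSeq table of 250 bases before to 50 after each start. All 31 members matched by symbol. Midpoints were assigned as described, a peak inside several genes going to each. Sharing meant an overlap of 1 bp or more with any peak in the other cell type. The genome given to a gene was measured on a grid of 100 bp. Members, lineages and the list of 34 other genes were chosen with earlier results of these data known, and a further gene of that list is not reported here. Every member is accounted for, and other genes are named where they hold the closest peak or belong to that list. No test was made. Python 3.11.15, numpy 2.4.6, pandas 2.3.3 and matplotlib 3.10.9 were used, and assignment and overlap were tested on simulated data.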

Additional observations from a re-analysis of the deposited data

How the results depend on the processing

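No paired analysis was possible because each cell type has 1 library, and for the same reason no replicate could be left out. Over 10 alternatives 90 of 105 recomputed counts were within 1.5 times the reported ones. Keeping the 2259 widest conventional and 1701 widest Treg peaks left 5 genes with a Treg peak in place of 10. No Th17 gene kept a peak there (0 conventional, 0 Treg) and none of the genes used by several lineages did (0 Treg). With the lists at equal lengths, and with the nearest gene start in place of the span, 0 Th17 genes had a conventional peak, since the Rora peak was lost. Equal lengths also removed the Il27ra peak, which left 6 genes with a conventional peak in place of 8. The nearest gene start left 1 Th17 gene with a Treg peak, and so did counting peaks within 10 kb of the span (1). Genes used by several lineages with a Treg peak were 1 with a 20 kb limit, 1 within 10 kb of the span and 1 with the nearest gene of any type. Follicular helper genes with a Treg peak were 1 within 10 kb and 1 with the nearest gene of any type, where the Il21 peaks went to the noncoding gene Gm12532. Ifng had no peak in either list with a 20 kb limit or within 10 kb of the span. With Maf counted as a follicular helper gene, 0 Th2 genes had a peak in either list. Merging peaks within 1000 bp joined the 2 conventional Il21 peaks into 1. No count of genes or of shared peaks moved past 1.5 times under merging or under the other definitions of overlap. Depth is unknown, so a missing peak may be a peak below the calling threshold.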
